A study of Mus musculus with 18 samples.

Results

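The interferon-stimulated genes are 45 mouse genes whose transcription is switched on by interferons, and they were taken here as the probes whose annotated gene symbol is a member of that list. Of the 45 genes, 42 had at least 1 probe on the array, with 69 probes in all out of 25697, and Gbp6, Dtx3l and Ifi44 had none. Transcripts were measured on Illumina bead arrays, where a probe's brightness reports the abundance of its transcript. The samples were submandibular gland, stomach and duodenum of C57BL/6 females aged 2 months, either wild type or Car6-/-, with 3 arrays of each genotype in each tissue and 18 arrays in all. Car6 encodes carbonic anhydrase VI, the secreted carbonic anhydrase of saliva. The sources used here do not give how the Car6 allele was inactivated. The series text speaks of 3 mice of each genotype but does not tie a mouse to the arrays of its tissues.

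Interferons are secreted proteins that warn cells of viruses and other microbes. Type I interferons (alpha and beta) and type III interferons (lambda) act through the kinases JAK1 and TYK2 and a transcription factor complex that includes STAT2 and IRF9. The complex binds the interferon-stimulated response element (ISRE) in promoters. Interferon gamma acts at another element, the gamma-activated site (GAS). The intestinal epithelium is known to respond to type III interferon, and interferon gamma made by T cells and NK cells induces the GBP and IRG families and the chemokines CXCL9 and CXCL10.

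The Car6 probe gave signals of 113.6, 106.5 and 158.2 on the wild-type submandibular gland arrays, each above background, where detected means a deposited detection p under 0.01. On the Car6-/- gland arrays its signals were 63.57, 55.14 and 50.99, none detected, and it was detected on no stomach or duodenum array. Probes detected per array numbered 7868 to 9613 in the gland, 10214 to 11441 in the stomach and 9648 to 11808 in the duodenum. All 6 granular duct markers of the submandibular gland with a probe, all 7 gastric mucous and all 4 parietal cell markers of the stomach were detected in their tissue. In the duodenum 5 of 7 enterocyte markers were detected, and the probes for Fabp1 and Fabp2 were not. All 7 gastric mucous and all 7 pancreatic acinar markers were also detected there. Of the wild-type and Car6-/- arrays, those numbered 3 had a wider range of signal. The 99th percentile was 90.92 to 111.3 times the median on the duodenum arrays numbered 3 and 59.92 to 87.99 times on the others. The wild-type array numbered 3 was also the one that stood apart in the interferon-stimulated genes, as described for each tissue.

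Signals were background-corrected, quantile-normalized within a tissue and put on the log2 scale, and a gene entered the test of a tissue if a probe of it was detected on at least 3 of the 6 arrays. By this filter 28 members were tested in the duodenum, 22 in the submandibular gland and 20 in the stomach. Probes without a gene symbol were tested as well, each on its own, and are counted here among all genes tested. Of the members, 18 were tested in all 3 tissues, 29 in at least 1 and 13 of those with a probe in none. Ifit1, Mx1, Gbp4, Iigp1, Tgtp1, Ifih1, Parp9 and Xaf1 were detected on none of the 18 arrays. Several families hold close paralogs (Oas1a and Oas1g, the GBPs, the IFITs), and a probe may bind more than 1 of them.

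In the duodenum the interferon-stimulated genes were higher in Car6-/- than in wild-type mice in all but 1 of the tested members, without any of them passing the test across all genes. No member had a Benjamini-Hochberg adjusted p under 0.05 in limma, against 0.0117% of all 8523 genes tested, and the smallest adjusted p of a member was 0.118. At an unadjusted p under 0.05, 24 of the 28 members were higher in Car6-/- and none was lower, while 11.4% of all genes tested were higher at that level. In 23 of the 28, every Car6-/- array lay above every wild-type array, which was so for 15.8% of all genes tested. The median log2 difference of the 28 members was 1.15, with a range from -0.16 for Zbp1 to 2.93 for Isg15, and that of all genes tested was 0.0184. With Oas2 and Rtp4, which were undetected on every wild-type array, at their lower bounds, the median was 1.11. In RNA from whole tissue, more cells of a type and more RNA per cell cannot be told apart.

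The filter could admit a gene through the Car6-/- arrays alone, so the same count was taken without it. Over all 42 members with a probe, 27 were higher at an unadjusted p under 0.05 and none was lower, against 7.74% of all genes, and the median log2 difference was 0.98. Of the 14 members that the filter left out in the duodenum, 6 were detected on 1 or 2 Car6-/- arrays and on no wild-type array. These were Oas1a and Mx2 on 2 arrays each, and Oas3, Ifitm1, Trim25 and Sp100 on 1 each. The other 8 were the genes detected nowhere.

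**Figure D1:**
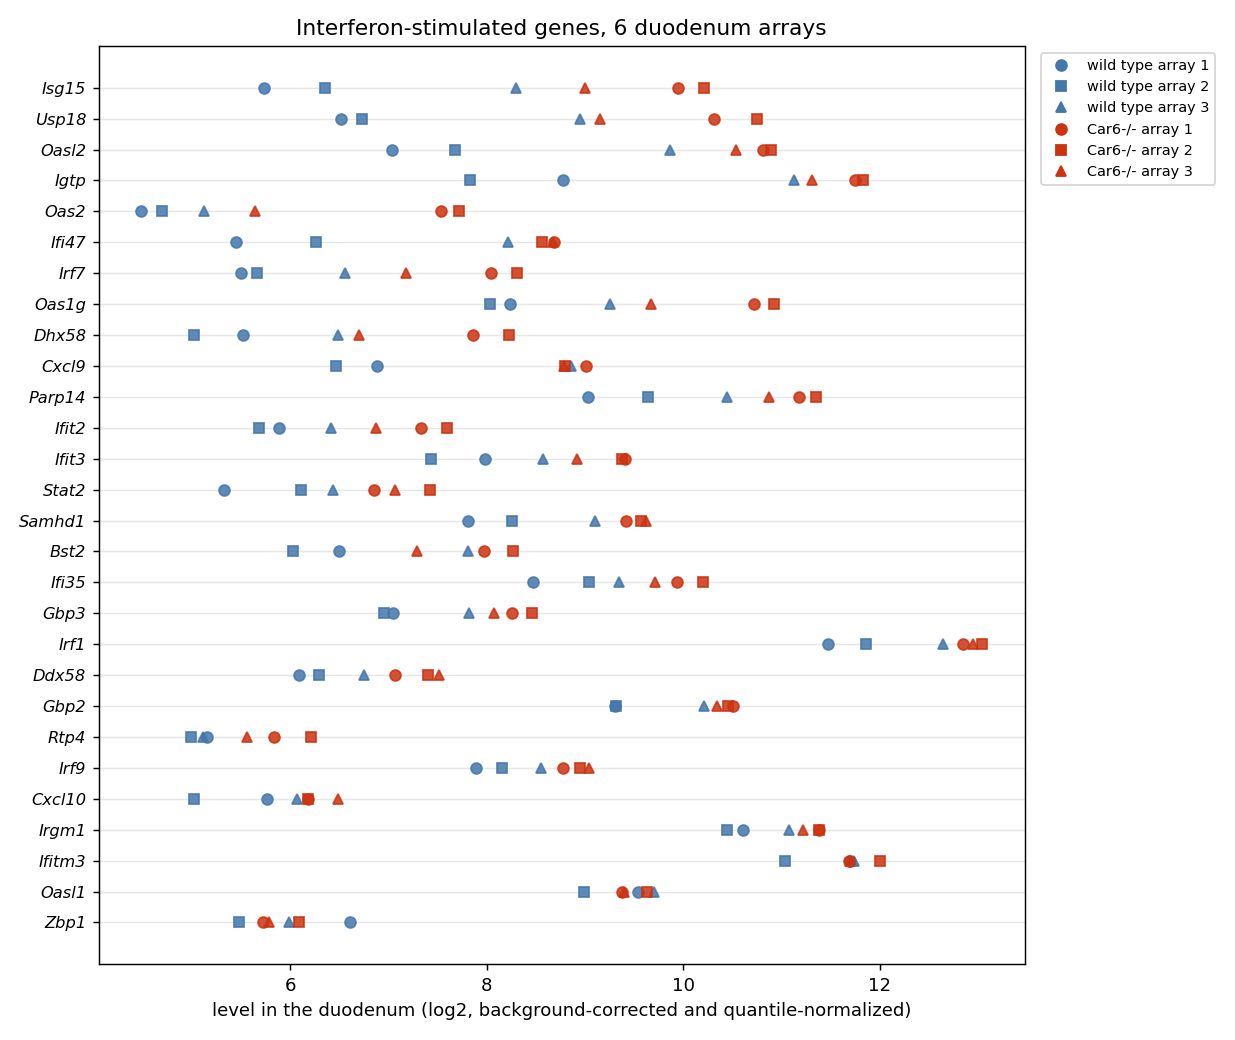
Level of the 28 tested interferon-stimulated genes on each duodenum array (x axis, log2, background-corrected and quantile-normalized), ordered by the difference between genotypes. Blue marks are wild-type arrays and red marks Car6-/- arrays, with a circle, square and triangle for arrays 1, 2 and 3. In 26 of the 28 genes wild-type array 3 was the highest wild-type array, and for Isg15 it stood at 8.30 against 5.73 and 6.36.

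ISG15 is a ubiquitin-like protein that is conjugated to other proteins after interferon, and USP18 removes it and dampens receptor signalling. In the duodenum the deposited Isg15 signal was 86.25, 137.5 and 364.5 on wild-type arrays 1 to 3 and 913.2, 1409 and 741.1 on the Car6-/- arrays. The normalized Isg15 levels were 5.73, 6.36 and 8.30 in wild type and 9.95, 10.22 and 8.997 in Car6-/-. The groups did not overlap, and wild-type array 3 lay closer to the lowest Car6-/- array than to the other wild-type arrays. The log2 difference of 2.93 (SE 0.66), 7.6-fold, had a limma adjusted p of 0.128. Usp18 stood at 6.52, 6.73 and 8.95 in wild type and at 10.32, 10.76 and 9.16 in Car6-/-, a log2 difference of 2.68 (SE 0.70, limma adjusted p = 0.130), and its 3 probes gave 2.59 to 2.70.

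The oligoadenylate synthetases sense double-stranded RNA and activate RNase L. Oas1g levels were 8.24, 8.04 and 9.25 in wild type and 10.73, 10.92 and 9.67 in Car6-/-, with no overlap. Its log2 difference was 1.93 (SE 0.42, limma adjusted p = 0.128). Oasl2, an OAS-like protein, differed by 2.55 (SE 0.66, limma adjusted p = 0.130). Oas2 was undetected on all 3 wild-type arrays and detected on all 3 Car6-/- arrays, and was at least 1.81-fold higher in Car6-/- (limma adjusted p = 0.128). This bound, and the others below, is a ratio of quantile-normalized signals without background correction, with undetected values raised to the lowest detected value of their array. Oasl1 differed by 0.06 (SE 0.21) on its brightest probe, with overlapping groups, whereas its other kept probes gave 0.449 and 1.008.

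The IFIT proteins bind viral RNA and restrain its translation. Ifit2 levels were 5.89, 5.69 and 6.42 in wild type and 7.34, 7.60 and 6.87 in Car6-/-. The groups did not overlap, and the log2 difference was 1.27 (SE 0.26, limma adjusted p = 0.122). Ifit3 differed by 1.24 (SE 0.30, limma adjusted p = 0.128).

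The guanylate-binding proteins (GBP) and the immunity-related GTPases (IRG) attack the vacuoles of intracellular microbes. All 5 tested members of these families, Gbp2, Gbp3, Igtp, Irgm1 and Ifi47, were higher in Car6-/- at an unadjusted p under 0.05 with no overlap between the groups. Of all genes tested, 11.4% were higher at that level and 15.8% were higher with no overlap. Gbp3 levels were 7.05, 6.95 and 7.82 in wild type and 8.26, 8.46 and 8.08 in Car6-/-, a log2 difference of 0.99 (SE 0.25, limma adjusted p = 0.130). Igtp had the widest wild-type spread of the 5, with 8.78, 7.83 and 11.13 in wild type against 11.75, 11.83 and 11.31 in Car6-/-. Its log2 difference was 2.38 (SE 0.76, limma adjusted p = 0.152). Ifi47 differed by 2.00 (SE 0.63, limma adjusted p = 0.151). The 2 kept probes of Irgm1 gave 0.62 and 1.99, so the size for this gene depended on the probe.

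Among the cytosolic sensors, RIG-I (Ddx58) recognizes viral RNA and LGP2 (Dhx58) modulates it. Ddx58 levels were 6.09, 6.29 and 6.75 in wild type and 7.07, 7.41 and 7.52 in Car6-/-. The groups did not overlap, and the log2 difference was 0.95 (SE 0.21, limma adjusted p = 0.128). Dhx58 differed by 1.92 (SE 0.49, limma adjusted p = 0.130) and was detected on 1 of 3 wild-type and 3 of 3 Car6-/- arrays. Zbp1, a sensor of Z-form nucleic acid, was the exception in the list, with 6.61, 5.48 and 5.99 in wild type and 5.73, 6.09 and 5.79 in Car6-/-. These groups overlapped, and the difference of -0.16 had an SE of 0.28.

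All 4 transcription factors of the list were higher in Car6-/- at an unadjusted p under 0.05, against 11.4% of all genes tested. IRF7 amplifies type I interferon production, and Irf7 had the smallest p of all members. Its levels were 5.50, 5.66 and 6.56 in wild type and 8.04, 8.31 and 7.18 in Car6-/-. The log2 difference was 1.93 (SE 0.38, limma adjusted p = 0.118), 3.82-fold, with no overlap. Irf9 and Stat2, which encode subunits of the complex that binds the ISRE, differed by 0.72 (SE 0.19, limma adjusted p = 0.133) and 1.15 (SE 0.30, limma adjusted p = 0.130). Irf1, a factor induced strongly by interferon gamma, stood at 11.47, 11.86 and 12.65 in wild type and 12.85, 13.05 and 12.95 in Car6-/-. Its difference was 0.96 (SE 0.29, limma adjusted p = 0.146), and its 5 probes gave 0.82 to 1.28.

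CXCL9 and CXCL10 attract activated T cells through CXCR3. Cxcl9 levels were 6.89, 6.47 and 8.86 in wild type and 9.02, 8.80 and 8.78 in Car6-/-, so wild-type array 3 lay among the Car6-/- arrays. The Cxcl9 difference was 1.46 (SE 0.57, limma adjusted p = 0.195) and that of Cxcl10 was 0.66 (SE 0.27, limma adjusted p = 0.207). Tetherin (Bst2), which holds budding virus at the membrane, overlapped too. Its levels were 6.50, 6.03 and 7.81 in wild type and 7.97, 8.27 and 7.30 in Car6-/-, a difference of 1.07 (SE 0.47, limma adjusted p = 0.232). Ifitm3, which blocks viral entry from endosomes, differed by 0.31 (SE 0.22), with 11.70, 11.03 and 11.74 in wild type and 11.69, 12.01 and 11.69 in Car6-/-.

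PARP14 is an ADP-ribosyltransferase and SAMHD1 a phosphohydrolase that depletes deoxynucleotides. Parp14 levels were 9.03, 9.65 and 10.45 in wild type and 11.18, 11.35 and 10.88 in Car6-/-, a log2 difference of 1.43 (SE 0.34, limma adjusted p = 0.128). Samhd1 differed by 1.15 (SE 0.31, limma adjusted p = 0.136), and neither gene's groups overlapped. Rtp4 was undetected on all 3 wild-type arrays, with normalized levels of 5.15, 4.99 and 5.12, and detected on all 3 Car6-/- arrays, with 5.84, 6.21 and 5.56. It was at least 1.08-fold higher in Car6-/- (limma adjusted p = 0.128). Ifi35 differed by 0.996 (SE 0.25, limma adjusted p = 0.128).

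The promoter windows of the 5 members with the smallest p in the duodenum are shown, because interferon factors are known to act at such sites. The windows run from 250 bases before to 50 bases after the annotated start, from RefSeq on GRCm38.p6. Sequences are given 5′ to 3′ on the gene's strand, and capitals mark a match to either motif. The ISRE was searched as GAAA, any 2 bases and GAAA again, and the GAS as TTC, any 3 bases and GAA, both on either strand.
Irf7, chr7:141266375-141266674, minus strand: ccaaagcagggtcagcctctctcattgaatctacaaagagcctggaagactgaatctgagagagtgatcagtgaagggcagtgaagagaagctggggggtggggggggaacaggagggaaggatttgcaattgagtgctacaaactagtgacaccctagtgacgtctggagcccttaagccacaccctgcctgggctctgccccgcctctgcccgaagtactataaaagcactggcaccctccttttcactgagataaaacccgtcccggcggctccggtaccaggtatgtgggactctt
Ifit2, first annotated start, chr19:34550444-34550743, plus strand: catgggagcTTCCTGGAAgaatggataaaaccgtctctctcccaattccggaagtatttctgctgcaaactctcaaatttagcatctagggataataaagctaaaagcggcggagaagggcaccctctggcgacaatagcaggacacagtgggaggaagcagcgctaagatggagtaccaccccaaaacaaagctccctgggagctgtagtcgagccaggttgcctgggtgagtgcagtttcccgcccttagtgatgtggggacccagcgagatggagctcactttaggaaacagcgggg
Ifit2, other annotated start, chr19:34550838-34551137, plus strand: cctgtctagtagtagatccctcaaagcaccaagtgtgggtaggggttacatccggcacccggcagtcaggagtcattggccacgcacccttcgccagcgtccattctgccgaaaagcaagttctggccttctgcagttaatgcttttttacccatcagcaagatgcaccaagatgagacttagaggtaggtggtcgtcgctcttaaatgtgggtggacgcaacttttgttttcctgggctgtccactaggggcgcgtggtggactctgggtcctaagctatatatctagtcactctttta
Oas1g, chr5:120887564-120887863, minus strand: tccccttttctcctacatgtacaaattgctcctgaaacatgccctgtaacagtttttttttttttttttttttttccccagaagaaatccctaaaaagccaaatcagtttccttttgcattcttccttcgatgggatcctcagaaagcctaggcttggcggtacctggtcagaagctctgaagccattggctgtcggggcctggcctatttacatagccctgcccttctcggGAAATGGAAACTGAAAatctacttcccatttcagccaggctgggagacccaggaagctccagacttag
Ddx58, chr4:40239776-40240075, minus strand: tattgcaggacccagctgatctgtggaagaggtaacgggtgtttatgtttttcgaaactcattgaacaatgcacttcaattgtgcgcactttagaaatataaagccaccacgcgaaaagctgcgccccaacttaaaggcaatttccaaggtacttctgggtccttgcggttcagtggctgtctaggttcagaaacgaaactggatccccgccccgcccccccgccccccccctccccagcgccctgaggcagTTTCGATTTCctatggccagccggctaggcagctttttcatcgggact
Isg15, chr4:156200769-156201068, minus strand: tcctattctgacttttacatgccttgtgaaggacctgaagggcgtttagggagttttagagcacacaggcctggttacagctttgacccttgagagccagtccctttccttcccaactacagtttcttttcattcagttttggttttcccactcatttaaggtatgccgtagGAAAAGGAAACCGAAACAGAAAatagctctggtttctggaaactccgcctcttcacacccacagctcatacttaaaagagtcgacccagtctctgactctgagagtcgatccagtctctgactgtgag
The Isg15 window held 3 overlapping ISRE matches, the first starting 78 bases before the annotated start, and the Oas1g window held 2, from 18 bases before it. The Ddx58 window held 1, beginning 2 bases after the start. Ifit2 had a GAS match 241 bases before its first start and no ISRE match, and the Irf7 window held neither. Of the 33 members with a window, 17 (51.5%) held an ISRE match and 9 (27.3%) a GAS match. Of all 27025 genes with a window, 3.99% held the ISRE and 9.55% the GAS. In 2 members an ISRE match overlapped a GAS match. These shares are descriptions of the letters in the windows. Among members with an unadjusted p under 0.05 in the duodenum, 10 of 19 with a window held the ISRE, and among those tested with a larger p, 2 of 3 did.

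The wild-type duodenum arrays were not alike. Wild-type array 3 was the highest wild-type array in 26 of the 28 members, which it was in 29.7% of all genes tested. The median deviation of the members from their 6-array mean was -0.99 and -0.87 on wild-type arrays 1 and 2 and 0.05 on wild-type array 3. On the Car6-/- arrays it was 0.57, 0.75 and 0.31. Car6-/- array 3 was the lowest Car6-/- array in 18 of the 28. Since wild-type array 3 was the highest wild-type array in most members, leaving it out raises their difference by construction. The counts without it are therefore no independent support. Without wild-type array 3, the median log2 difference was 1.4985, and 11 of 28 members passed the limma threshold, against 0.599% of all genes tested called higher. These were Cxcl9, Gbp2, Gbp3, Ifi47, Igtp, Irf1, Isg15, Oasl2, Parp14, Samhd1 and Usp18. Without both arrays numbered 3, a setting chosen after seeing the data, 7 of 23 passed, against 0.216% of all genes called higher, with a median of 1.66. Leaving out any of the other duodenum arrays gave 0 members past the threshold. Fitted together with the other tissues, which pools the spread over 18 arrays, 21 of 30 members were higher in Car6-/- past the threshold (limma adjusted p 0.0144 to 0.0482), against 2.77% of all genes called higher. The pooled spread is not that of the duodenum alone. The SE fell from 0.76 to 0.53 for Igtp and from 0.63 to 0.43 for Ifi47, and rose from 0.42 to 0.49 for Oas1g. Sp100, 1 of the 21, was detected on 1 of the 6 duodenum arrays. The same fit gave 0 members past the threshold in the gland and 0 in the stomach.

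**Figure D2:**
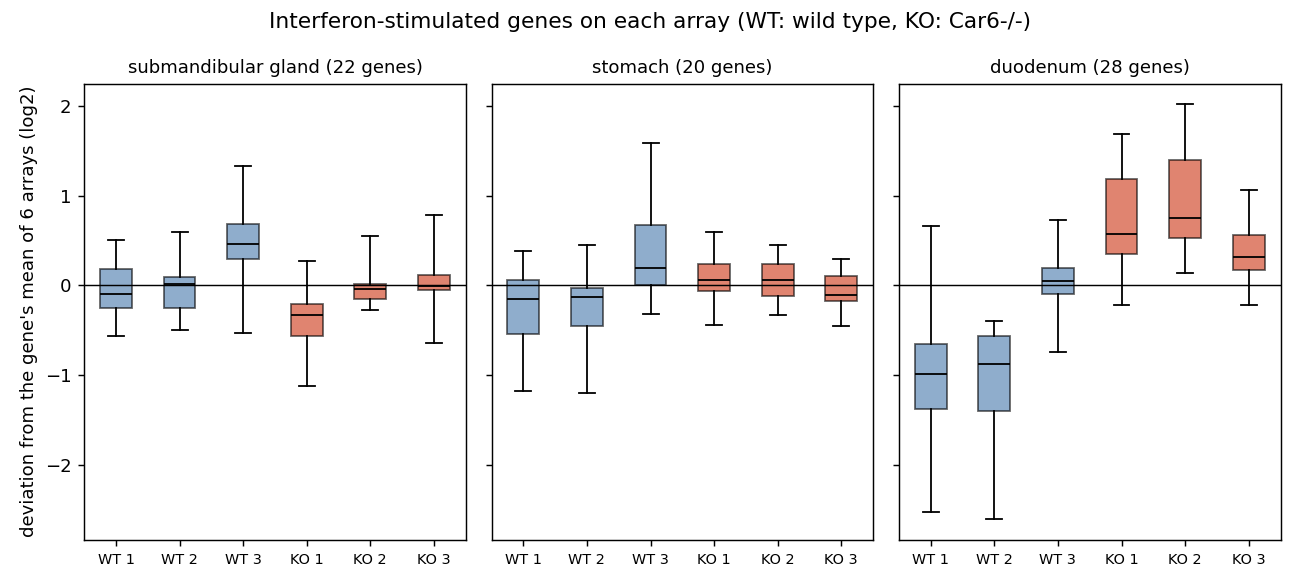
Deviation of each tested interferon-stimulated gene from its mean over the 6 arrays of a tissue (y axis, log2), by array, with 22 genes in the submandibular gland, 20 in the stomach and 28 in the duodenum. The line is the median, the box the quartiles and the whiskers the full range, and wild-type array 3 has the highest wild-type median in each tissue (0.46, 0.19 and 0.05).

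Markers of other cell types also differed between the duodenum arrays. The mean level of the 5 tested enterocyte markers was 10.74, 11.83 and 12.12 on the wild-type arrays and 12.35, 12.71 and 12.90 on the Car6-/- arrays, so these groups did not overlap, and 4 of the 5 were higher at an unadjusted p under 0.05. The 6 tested T and NK cell markers stood at 7.16, 7.21 and 8.78 in wild type and 7.76, 8.24 and 9.61 in Car6-/-. All 6 were higher in Car6-/-, with a median log2 difference of 0.88, but none had an unadjusted p under 0.05 and the list means overlapped. The array numbered 3 was the highest of each genotype. Of the 10 T and NK cell markers with a probe, Cd8a, Cd4, Gzma and Gzmb were detected on no duodenum array. The 4 tested B and plasma cell markers stood at 8.51, 8.85 and 9.16 in wild type and 9.20, 9.24 and 9.67 in Car6-/-. These list means did not overlap, and 3 of the 4 markers were higher, 2 of them at an unadjusted p under 0.05. The 7 tested macrophage and dendritic cell markers overlapped, with 7.99, 7.90 and 8.27 against 7.82, 8.20 and 8.33. The 6 fibroblast markers were all lower in Car6-/-, at 8.57, 8.46 and 8.72 in wild type and 7.84, 7.996 and 7.91 in Car6-/-, with 4 of them at an unadjusted p under 0.05. The 6 smooth muscle markers were also all lower, 3 of them at that level, with 10.89, 10.71 and 11.07 in wild type and 10.67, 10.31 and 10.08 in Car6-/-. The 7 gastric mucous markers stood between 13.24 and 14.12 on 5 arrays and at 8.78 on Car6-/- array 3. No marker of these lists had a limma adjusted p under 0.05. At the unadjusted level, 11.4% of all genes tested were higher and 11.4% lower. The part of any of these differences in the interferon-stimulated genes was not tested.

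**Figure D3:**
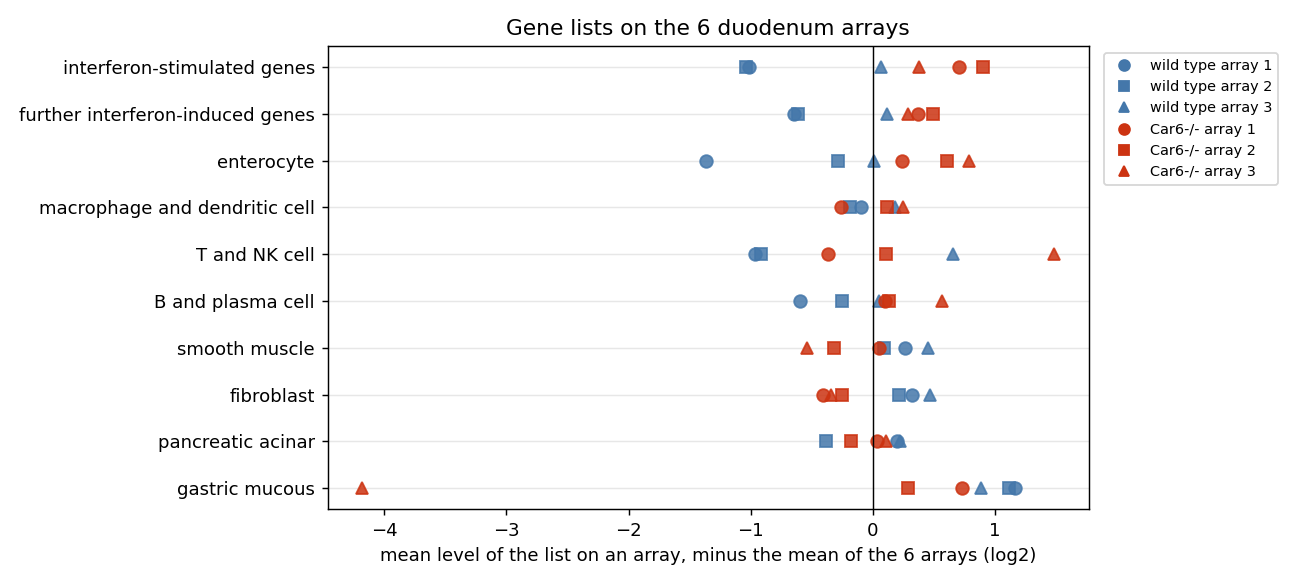
Mean level of the 28 tested interferon-stimulated genes, of the further interferon-induced genes and of 8 lists of cell type markers on each duodenum array, minus the mean of the 6 arrays (x axis, log2). Blue is wild type and red Car6-/-, with the symbol giving the array number. The interferon-stimulated genes average 7.37, 7.34 and 8.45 on the wild-type arrays and 9.09, 9.28 and 8.75 on the Car6-/- arrays.

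Few genes of the pathway upstream had a small p in the duodenum. Of 11 interferon genes, 9 had a probe and none passed the detection filter in any tissue. Of the interferon receptors, 4 were tested and none had an unadjusted p under 0.05. The median of these 4 was 0.03. Of all genes tested, 11.4% were higher and 11.4% lower at that level. Of 8 tested genes of JAK-STAT signalling and its inhibitors, 1 was higher and 1 lower, which is near the share of all genes. These were Irf8, a factor of myeloid and B cells, with a log2 difference of 1.07 (SE 0.36, limma adjusted p = 0.159), and Socs3, a feedback inhibitor, with -0.38 (SE 0.13, limma adjusted p = 0.168). Among 8 tested genes of the pathways that sense nucleic acid and induce interferon, Tbk1, the kinase that activates IRF3, was higher by 0.58 (SE 0.19, limma adjusted p = 0.160), and all 8 differences were positive, with a median of 0.17.

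A list of further genes known to be induced by interferon was examined next. Of its 50 genes, 35 were tested, with 21 higher and 3 lower in Car6-/- at an unadjusted p under 0.05 and a median log2 difference of 0.82. Of all genes tested, 11.4% were higher and 11.4% lower at that level. None passed the limma threshold. The smallest adjusted p was 0.094 for Isg20, an exonuclease, which was lower by -1.16 (SE 0.18), and Tor3a (-1.07, SE 0.20) and Ifitm2 (-0.28, SE 0.11) were the other genes of the list that were lower at that level. On the higher side, Epsti1 differed by 1.05 (SE 0.19), Trim30a by 1.70 (SE 0.32) and Cmpk2 by 1.62 (SE 0.31), each with a limma adjusted p of 0.115. Viperin (Rsad2), an antiviral radical enzyme, stood at 6.81, 6.92 and 8.09 in wild type and 9.31, 9.89 and 8.52 in Car6-/-. Of genes that act in antigen presentation, 3 were higher at that level, and B2m, which encodes the light chain of MHC class I, differed by 0.67 (SE 0.30) with overlapping groups. Tap1 differed by 1.26 (SE 0.31), Psmb9 by 1.67 (SE 0.51), and Nlrc5, the activator of MHC class I genes, by 2.11 (SE 0.55).

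In the submandibular gland most members were lower in Car6-/-, and none passed the test. Of 22 tested, 19 were lower and 3 higher, and the median log2 difference was -0.28, against 0.011 for all genes tested. No member had a limma adjusted p under 0.05 (0.099% of all 7074 genes did), and the smallest was 0.205. At an unadjusted p under 0.05, 4 members were lower, against 4.07% of all genes, and 1 was higher, against 5.57%. Same-numbered arrays of the 2 genotypes deviated together in this tissue, with correlations of 0.27, 0.52 and 0.24. With the replicate number as a block, 10 of the 22 were lower at that level, against 8.26% of all genes, and none passed the adjusted threshold. With arrays scaled to their medians in place of quantile normalization, none was lower at that level, against 0.551% of all genes. The median log2 difference of the members was then -0.21.

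The 4 lower members were Isg15 and 3 GTPases. Isg15 stood at 6.96, 7.06 and 7.67 in wild type and 6.38, 6.71 and 6.42 in Car6-/-, with no overlap and a log2 difference of -0.73 (SE 0.20, limma adjusted p = 0.490). Gbp2 stood at 8.06, 7.66 and 7.96 in wild type and 7.04, 7.55 and 7.47 in Car6-/-, a difference of -0.54 (SE 0.18, limma adjusted p = 0.499). Gbp3 differed by -0.57 (SE 0.20) and Igtp by -0.53 (SE 0.18), both with a limma adjusted p of 0.499. The other kept probe of Gbp3 gave -0.28, so the size for this gene depended on the probe. Wild-type array 3 was the highest wild-type array in 19 of the 22 members (37.2% of all genes) and Car6-/- array 1 the lowest Car6-/- array in 19 (24.5% of all genes). Without wild-type array 3 the median was -0.02, with 3 members lower at an unadjusted p under 0.05, against 6.95% of all genes. Without Car6-/- array 1 it was -0.15, with 1 member lower, against 2.15% of all genes.

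Irf1 went the other way in the gland. Its brightest probe gave 7.69, 7.75 and 7.87 in wild type and 8.36, 8.80 and 9.04 in Car6-/-, a log2 difference of 0.96 (SE 0.18, limma adjusted p = 0.205) with no overlap. The other 3 kept probes for Irf1 gave -0.32, -0.05 and 0.24, so the probes disagreed in direction. In the duodenum the same probes all gave a positive difference.

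In the remaining roles, the member with the smallest p in the gland overlapped between genotypes. Ifit3 stood at 7.65, 7.11 and 8.14 in wild type and 6.66, 7.25 and 7.31 in Car6-/- (difference -0.56, SE 0.28). Ddx58 stood at 5.65, 5.81 and 6.10 against 5.50, 5.43 and 5.72 (difference -0.30, SE 0.15). For both genes the lowest wild-type array lay below at least 1 Car6-/- array. Oas1g stood at 5.53, 6.17 and 6.65 in wild type and 5.48, 5.82 and 6.04 in Car6-/- (difference -0.34, SE 0.28). Cxcl9 stood at 5.46, 4.70 and 5.11 against 4.62, 4.69 and 5.18 (difference -0.26, SE 0.22). Bst2 stood at 5.36, 6.19 and 6.69 against 4.76, 6.12 and 6.17 (difference -0.40, SE 0.44). In each of these 3 the ranges of the genotypes crossed. Sp100 stood at 5.49, 5.16 and 6.11 against 5.23, 5.44 and 5.41 (difference -0.22, SE 0.23). Ifi35 stood at 7.12, 7.44 and 7.47 against 7.15, 7.35 and 7.29 (difference -0.08, SE 0.14). Ifitm3 stood at 10.53, 10.85 and 11.24 in wild type and 10.49, 11.05 and 10.81 in Car6-/- (difference -0.09, SE 0.21), again with overlap. Markers of other cells varied in the gland as well. Of all genes tested there, 5.57% were higher and 4.07% lower at an unadjusted p under 0.05. Both tested adipocyte markers were lower in Car6-/- at an unadjusted p under 0.05, with a list mean of 8.99, 7.63 and 6.98 in wild type and 5.94, 5.95 and 7.51 in Car6-/-. The 6 granular duct markers all had lower means (median difference -0.69), 1 of them at that level. The 2 tested T and NK cell markers stood at 6.37, 6.41 and 6.18 against 5.42, 5.98 and 6.01, with 1 lower at that level, and the other 8 with a probe were detected on no gland array. The mean of the 5 parotid gland markers was 7.77 on wild-type array 1 and 9.54 on Car6-/- array 1 and lay between 12.14 and 13.31 on the other 4 arrays. The 7 tested macrophage and dendritic cell markers stood at 7.59, 7.53 and 7.92 in wild type and 7.15, 7.46 and 7.51 in Car6-/-, and the part of these lists in the result was not tested. Of the further interferon-induced genes, 22 were tested in the gland. At an unadjusted p under 0.05, 1 was higher (5.57% of all genes) and 3 lower (4.07%), and none passed the limma threshold.

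**Figure D4:**
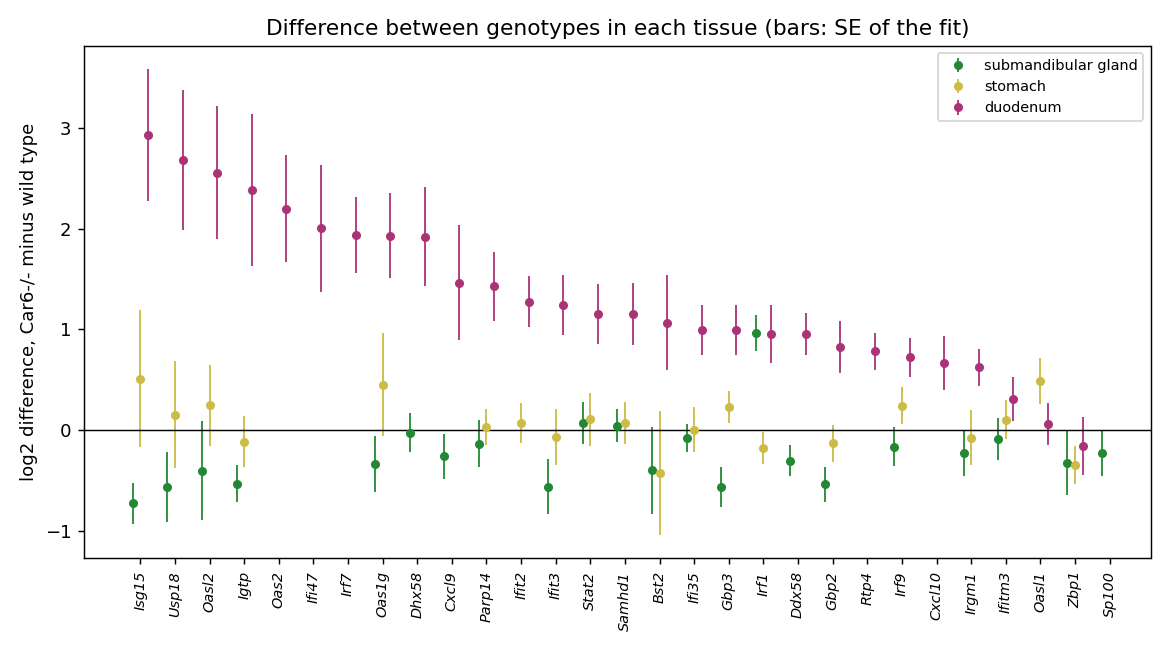
Log2 difference between Car6-/- and wild type (y axis) of the 29 interferon-stimulated genes tested in at least 1 tissue, with the SE of the fit as bars and 3 arrays against 3 behind each point. Duodenum values run from -0.16 to 2.93, stomach values from -0.43 to 0.51 and submandibular gland values from -0.73 to 0.96, and the values of Oas2 and Rtp4 in the duodenum are fitted ones, with bounds given in the text.

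In the stomach no interferon-stimulated gene had a small p for the difference between genotypes. Of 20 tested, 13 were higher and 7 lower in Car6-/-, with a median log2 difference of 0.07 against -0.0151 for all genes tested. No member had a limma adjusted p under 0.05, and neither did any gene of the 8556 tested (0%). No member had an unadjusted p under 0.05 either, against 2.9% of all genes. Oasl1 had the smallest p (0.0692 unadjusted in limma). Its levels were 8.31, 8.44 and 8.89 in wild type and 9.26, 9.14 and 8.70 in Car6-/-, which overlapped, a difference of 0.49 (SE 0.23), and its 3 probes gave -0.10 to 0.74.

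Wild-type array 3 stood apart in the stomach too, as the highest wild-type array in 14 of the 20 members (40.9% of all genes). Isg15 stood at 6.21, 6.04 and 8.71 in wild type and at 7.84, 7.65 and 7.005 in Car6-/-. Array 3 was thus the highest of all 6, and the other wild-type arrays were below every Car6-/- array, giving a difference of 0.51 with an SE of 0.68. Bst2 was also highest on that array, at 5.09, 6.50 and 7.86 in wild type and 6.31, 6.04 and 5.81 in Car6-/- (difference -0.43, SE 0.62). Other members were closer together. Gbp3 stood at 7.19, 6.86 and 7.07 in wild type and 7.19, 7.37 and 7.24 in Car6-/- (difference 0.23, SE 0.16), and Zbp1 at 5.85, 6.26 and 5.83 against 5.77, 5.47 and 5.66 (difference -0.35, SE 0.19). In these 2 genes alone the genotypes did not overlap, with Gbp3 higher and Zbp1 lower in Car6-/-. For Gbp3 the nearest arrays stood at 7.1892 in wild type and 7.1926 in Car6-/-. Of all 8556 genes tested, 271 were higher and 500 lower with no overlap. Irf9 stood at 7.50, 7.54 and 7.55 in wild type and 7.72, 8.08 and 7.51 in Car6-/- (difference 0.24, SE 0.19). Ifit2 stood at 6.31, 6.15 and 5.81 against 6.35, 6.16 and 5.97 (difference 0.07, SE 0.20). Samhd1 stood at 6.93, 7.01 and 7.44 against 6.94, 7.30 and 7.36 (difference 0.07, SE 0.21). Irf9 differed by more than its SE, and Ifit2 and Samhd1 by less than theirs. Ifi35 stood at 7.57, 7.47 and 7.65 against 8.01, 7.46 and 7.25 (difference 0.0047, SE 0.22). Ifitm3 stood at 11.34, 11.28 and 11.76 against 11.41, 11.55 and 11.72 (difference 0.10, SE 0.19). Without wild-type array 3, 5 of the 20 members were higher at an unadjusted p under 0.05, against 2.41% of all genes, with a median of 0.22, and none passed the adjusted threshold. Because it was the highest wild-type array in most members, leaving that array out raises their difference by construction. The 4 tested pancreatic acinar markers averaged 12.37 on that array and 7.10 to 8.05 on the other 5 stomach arrays. The 7 macrophage and dendritic cell markers averaged 8.38 on it and 7.64 to 8.15 on the others. Their part in these values was not tested.

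The fit of all 18 arrays held 30 members and gave an interaction term for each pair of tissues, the genotype difference in one minus that in the other. The genotype difference was larger in the duodenum than in the submandibular gland for all 30 members in sign, with a median interaction of 1.47 on the log2 scale. At an unadjusted p under 0.05, 25 of the 30 were positive, against 6.59% of all 9682 genes. None passed the adjusted threshold, which 0.207% of all genes did. The smallest limma adjusted p was 0.0765 for Ddx58 (interaction 1.27, SE 0.29), followed by 0.0774 for Gbp2 (1.38, SE 0.32) and 0.0779 for Mx2. Mx2, a dynamin-like antiviral GTPase, was undetected on every wild-type duodenum array and detected on 2 of 3 Car6-/- arrays there, so no size is given for it. The medians of the interactions include the fitted values of such genes. Against the stomach, 22 of the 30 members were positive at that level, against 6.53% of all genes, with a median of 1.14, and none passed the adjusted threshold (0.0207% of all genes did). The smallest p values were those of Irf1 (1.14, SE 0.33, limma adjusted p = 0.149), Parp14 (1.40, SE 0.42, limma adjusted p = 0.158) and Oas2 (limma adjusted p = 0.159). No size is given for Oas2, which was undetected on the wild-type duodenum arrays. Between stomach and gland, 1 member was past an unadjusted p of 0.05 and none past the adjusted threshold (0.062% of all genes). It was Irf1, at -1.13 (SE 0.33, limma adjusted p = 0.910). This value rests on the brightest probe, whereas the other probes differed by -0.32 to 0.24 in the gland, and with the probes of a gene averaged no member was negative and 1 was positive at that level. Gbp3 (0.53, SE 0.30) and Cxcl10 (0.61, SE 0.36) came next. These contrasts share the duodenum or the gland arrays and are not independent of each other. Without duodenum wild-type array 3, 16 members passed the threshold against the gland (1.49% of all genes did, in that direction) and 9 against the stomach (1.19%). Leaving out this array, the highest wild-type one in most members, raises their interactions by construction. Without Car6-/- duodenum array 3, Mx2 and Oas2 passed against the gland (0.0627% of all genes) and Oas2 against the stomach (0.0105%). Without Car6-/- duodenum array 1, Ddx58 passed against the gland (0.435%).

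Among wild-type mice, levels of the members differed between tissues past the threshold, as did a large share of all genes. Between duodenum and submandibular gland, 6 of 30 members were higher in the duodenum (26.7% of all genes) and 11 lower (28.4%). The higher ones were Irf1, Oasl1, Parp14, Samhd1, Cxcl9 and Ifi47. Irf1 stood at 11.62 ± 0.60 (SD, n = 3) in the duodenum and 8.91 ± 0.09 in the gland, a log2 difference of 2.71 (SE 0.23, limma adjusted p = 6.16e-08). Oasl1 differed by 3.34 (SE 0.37, limma adjusted p = 1.22e-06). Ifi47 was undetected on the wild-type gland arrays and was at least 1.14-fold higher in the duodenum (limma adjusted p = 0.0139). The lower ones were Ddx58, Dhx58, Ifit3, Ifitm3, Irf9, Isg15, Mx2, Sp100, Stat2, Usp18 and Zbp1. Usp18 was lower by -2.21 (SE 0.62, limma adjusted p = 0.0067) and Isg15 by -1.86 (SE 0.63, limma adjusted p = 0.0190), the latter with 8.37 ± 0.39 in the gland and 6.51 ± 1.27 in the duodenum. Sp100, a nuclear body protein, was undetected on the wild-type duodenum arrays and at least 1.53-fold lower there (limma adjusted p = 7.26e-07). Mx2 was undetected there too and gave no bound above 1. Without duodenum wild-type array 3, 3 of the 6 higher members remained past the threshold, namely Irf1, Oasl1 and Parp14. Without gland wild-type array 2, 4 of the 6 remained, as Cxcl9 and Samhd1 were lost. Of the 11 lower members, 8 to 11 remained with single arrays left out. Isg15 was lost without gland wild-type array 3 and without duodenum wild-type array 1 or 2.

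Between duodenum and stomach, 10 members were higher in the duodenum (13.6% of all genes) and none was lower (17.4% of all genes). These were Irf1, Ifi35, Parp14, Samhd1, Ddx58, Ifi47, Cxcl9, Irf9, Igtp and Irgm1. Irf1 was higher by 1.78 (SE 0.23, limma adjusted p = 2.06e-05), Parp14 by 1.49 (SE 0.29, limma adjusted p = 0.00107) and Samhd1 by 1.24 (SE 0.25, limma adjusted p = 0.00136). Ifi47 was undetected in the wild-type stomach and at least 1.55-fold higher in the duodenum (limma adjusted p = 0.0121). Without duodenum wild-type array 3, 6 members passed, against 11% of all genes called higher. Without stomach wild-type array 2, 6 passed as well, against 11.9%. Between stomach and gland, 2 members were higher in the stomach (26.7% of all genes), namely Oasl1 by 2.78 (SE 0.37) and Irf1 by 0.93 (SE 0.23), and 13 were lower (24.1%). The Irf1 call was lost with the probes of a gene averaged. Irf9 was lower by -1.66 (SE 0.20, limma adjusted p = 3.44e-06), Ddx58 by -1.65 (SE 0.20, limma adjusted p = 5.49e-06) and Usp18 by -2.09 (SE 0.62, limma adjusted p = 0.0103). Without gland wild-type array 3, 8 of the 13 remained past the threshold, the lost members being Ifit3, Ifitm3, Isg15, Stat2 and Usp18. Usp18 was also lost without stomach wild-type array 1. Isg15 remained only without stomach wild-type array 3. Sp100 was at least 1.59-fold and Cxcl10 at least 1.17-fold lower in the stomach, where both were undetected.

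The tissue of the highest wild-type mean depended on how arrays were scaled. It was the submandibular gland for 19 of the 30 members, the duodenum for 10 and the stomach for 1, Oas2, with 1 of the 3 arrays above background. Among the 19, Rtp4 was detected on no wild-type array, and Cxcl10, Ifit2, Irf7 and Mx2 on 1 wild-type gland array each. With each array scaled to its median the highest mean was in the gland for 8 members (Dhx58, Irf9, Isg15, Mx2, Sp100, Stat2, Usp18 and Zbp1), in the duodenum for 17 and in the stomach for 5. Isg15 and Usp18 had their highest mean in the gland with either scaling, and their stomach and duodenum means (6.69 ± 1.47 and 6.51 ± 1.27 for Isg15) lay within 1 SD of each other. In Car6-/- mice the Isg15 mean was 9.34 ± 0.64 in the duodenum, 7.61 ± 0.19 in the gland and 7.16 ± 0.43 in the stomach. Scaling each array to its median moved the median difference of all genes from -0.04 to 0.64 between duodenum and gland and from 0.02 to 0.83 between stomach and gland. With that scaling 15 of 17 called members kept their direction against the gland in the duodenum, Ddx58 and Ifitm3 being the exceptions at 0.03 each. In the stomach 12 of 15 did, the exceptions being Ifit3 (0.11), Irgm1 (0.17) and Ifitm3 (0.21). All 10 kept it between duodenum and stomach.

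**Figure D5:**
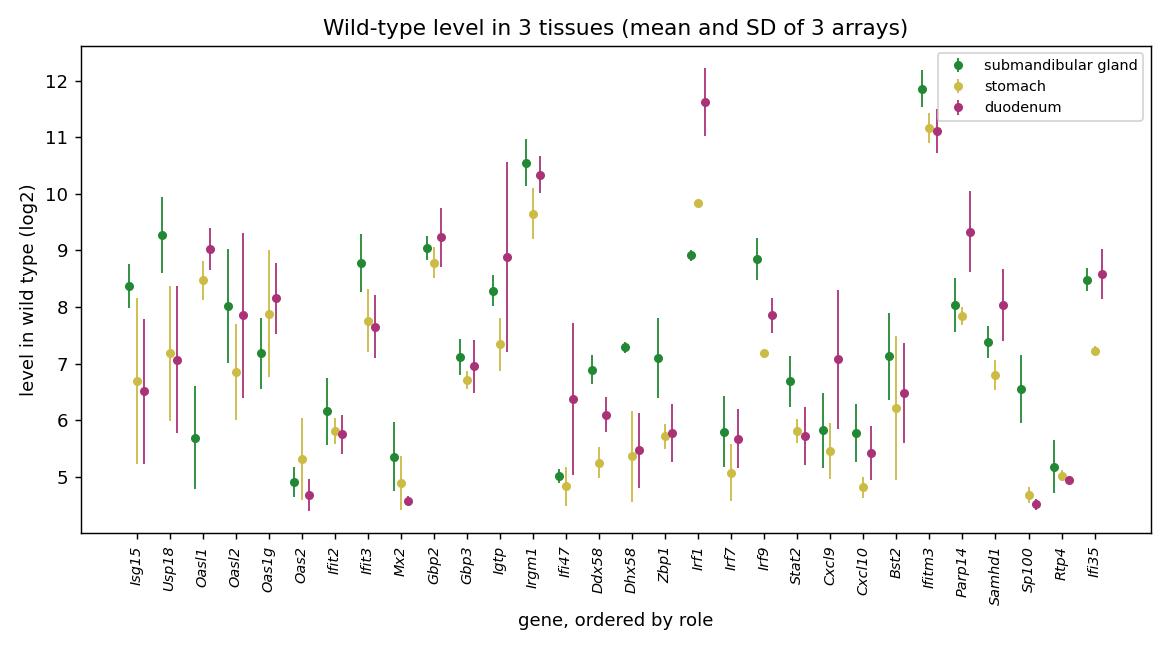
Wild-type level (y axis, log2, all 18 arrays normalized together) of 30 interferon-stimulated genes in the 3 tissues, ordered by role, with points for the mean and bars for the SD of 3 arrays. Irf1 is highest in the duodenum (11.62) and Isg15 in the submandibular gland (8.37), and the tissues are to be compared within a gene, since probes differ in brightness.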

How the data were processed

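Total RNA of 18 tissue samples was amplified and labelled with biotin for mouse Illumina arrays, per the labels' protocols. The authors deposited signal intensity values on a linear scale (36.7 to 40788) and a detection p-value beside each. They also deposited log2 values, whose sorted values match a quantile normalization within each tissue, with a largest difference of 0.0333, 0.0328 and 0.0496 in gland, stomach and duodenum. The sources used here give neither their software nor slide and scan date.

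From the intensities, the 6 arrays of a tissue were processed in R 4.3.3 with limma 3.58.1 (neqc, with normexp background, quantile normalization, offset 16). The negative control signals that neqc needs were derived from detection p-values. Genes needed a probe with a detection p under 0.01 on at least 3 of 6 arrays, and the kept probe of highest mean stood for a gene. Genotypes were compared by lmFit and eBayes over all genes with Benjamini-Hochberg adjustment at 0.05. Interactions and wild-type tissue contrasts came from 1 fit of all 18 arrays, treated as independent, with detection on at least 3 of them. The number of arrays limits the precision. Arrays of a group were separate samples per the labels.

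Probes were named through the platform annotation, in which 23978 of 25697 probes have 1 gene symbol, none has several and 1719 have none. A probe without a symbol stood for itself in the tests, the adjustment and the shares of all genes. The 45 members, their roles and the other lists were chosen with earlier results of these data known. All members may be named. Values on every array are given for the member of smallest p in each role and tissue, and list members up to 6 by p where any passes, otherwise the one of smallest p. Other list members named were chosen after their values were seen. The steps were tested on simulated arrays. Pairing by number was checked with the correlation between deviations of same-numbered arrays (gland 0.266, 0.520 and 0.235; stomach -0.311, -0.258 and -0.295; duodenum 0.485, 0.0871 and 0.440). By the rule that every correlation exceeds 0.1, same-numbered arrays deviated together in the gland alone. The sample titles give a number but no pairing. The main gland test did not use the number, and the result with it as a block is given beside that test. Alternatives were other background corrections, scalings, probe filters and probe summaries, the deposited log2 values, array weights, blocks and leaving out arrays.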

Additional observations from a re-analysis of the deposited data

How the results depend on the processing

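No duodenum member passed the threshold with another background correction, scaling, filter or probe summary or with the deposited log2 values. The count was 20 with array weights (9.95% of all genes called in either direction, 4.76% called higher). It was 21 with all 18 arrays in 1 fit (6.23% and 2.77%). With a replicate block it was 6 (Ddx58, Ifit2, Irf7, Irf9, Samhd1 and Stat2, against 11.4% and 4.9%). With a term for the arrays numbered 3 it was 1, Ddx58. That 1 member was a smaller share than the 4.93% of all genes called in either direction, though larger than the 1.15% called higher. Without both of those arrays it was 7 (chosen after seeing the data, median 1.66), and with single arrays left out 0 to 11. Higher members at an unadjusted p under 0.05 numbered 15 where detection on all 6 arrays was required, of 18 then tested, against 11.7% of all genes. In the gland, lower members at that level numbered 0 with median scaling (0.551% of all genes) and 7 with array weights (8.51%). They numbered 10 with the replicate block (8.26%), 7 with a term for arrays 3 (7.12%) and 1 without both arrays 1 (1.64%). With single arrays left out they numbered 1 to 5 (2.15% to 6.95%), and the median ran from -0.41 to -0.0221. In the stomach lower members numbered 1 with array weights (9.3% of all genes), with 6 higher (5.17%). With single arrays left out, lower ones numbered 0 to 1 (0.768% to 3.42%). Interactions of duodenum against gland gave 1 member without the filter (Oas1a, 0.0164% of all genes in that direction). They gave 3 with the replicate block (Ddx58, Gbp3 and Mx2, 0.217%, at a consensus correlation of 0.0839). Without all arrays 3 the count was 16 (0.883%), and with single arrays left out 0 to 16 (0.0103% to 1.49%). Against the stomach it was 6 without all arrays 3 (0.309%) and 0 to 9 with single arrays left out (0% to 1.19%). Between stomach and gland it was 1 without all arrays 3 (Isg15, 0.0883%). Wild-type duodenum against stomach gave 6 to 11 with single arrays left out (11% to 14.3% of all genes called higher). Some directions turned, among them differences near 0 and larger ones such as those of Oasl1 (0.49) and Bst2 (-0.43) in the stomach. Ifi35 was 0.0152 in the gland and -0.0018 in the stomach with median scaling, Oasl1 -0.0983 in the stomach with all 18 arrays, where another probe represents it, Sp100 0.0115 in the gland and Bst2 0.37 in the stomach without both arrays 3. With single arrays left out, Sp100 (-0.4535 to 0.0361) and Bst2 (-0.7660 to 0.0622) in the gland and Samhd1 (-0.0277 to 0.2257), Ifit2 (-0.0687 to 0.1821), Ifi35 (-0.21 to 0.17), Oasl1 (-0.24 to 0.66) and Bst2 (-1.13 to 0.26) in the stomach turned. The cause was not tested. The replicate block changed no other genotype or interaction call, and added Samhd1 to wild-type stomach against gland. Dim probes limit what was measured, since 13 were tested in no tissue.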
